A study of Homo sapiens with 4 samples.

Results

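Respiratory complexes III and IV and the ATP synthase are the last steps of oxidative phosphorylation. Their genes were taken from the table by symbol: every symbol that begins with UQCR or ATP5, every symbol made of COX, a digit from 4 to 8 and a further letter, and CYC1 and CYCS. This gave 43 of the 16376 listed genes. Complex III had 10 genes, cytochrome c had 1, complex IV had 13 and the ATP synthase had 19. The rule reads only names, so it also takes tissue isoforms, a near-identical copy of UQCRH (UQCRHL) and the ATP synthase inhibitor ATP5IF1. It does not take the assembly factors, nor NDUFA4, a complex IV subunit that carries a complex I name. Subunits encoded by mitochondrial DNA were not analysed here.

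LASCPC-01 is an established human cell line of neuroendocrine prostate cancer (NEPC), generated by NMYC and activated AKT1, which cells of both groups carry. RNA was sequenced from 2 PBS-treated samples (the control) and 2 samples treated with fluoxetine, an antidepressant that inhibits serotonin reuptake. The study's text gives 5 µM of fluoxetine for 48 h, whereas the labels give day 3 with no dose, and the titles of the fluoxetine samples hold the letters PP. The labels do not say whether samples of a group were separate cultures, so p-values measure the spread between these libraries, which may be technical. As checks of the cell type, MYCN was at 323 to 387 FPKM and NCAM1 at 44.3 to 52.0 FPKM. INSM1 was at 21.7 to 24.2 FPKM and ENO2 at 2.07 to 3.10 FPKM. By contrast, SYP was at 0.142 to 0.629 FPKM and CHGA below 0.1 FPKM in every library. The epithelial genes EPCAM, KRT8 and KRT18 were each above 227 FPKM. Of the fibroblast, leukocyte and endothelial markers, COL1A1 reached 2.75 FPKM and PDGFRB, PTPRC and PECAM1 had at most 7 reads.

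Complex III passes electrons from ubiquinol to cytochrome c, and complex IV passes them from cytochrome c to oxygen. Both pump protons across the inner mitochondrial membrane, and the ATP synthase lets the protons flow back to make ATP. The nuclear genes for these machines are known to share the transcription factors NRF1, GABP (an ETS family factor) and YY1.

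The upstream sequences of 3 members are shown because they hold the letters that these factors are known to bind. UQCRQ and COX6B1 had the highest log2 fold changes of their complexes, and ATP5PF was the only member with letters of all 3 kinds. Each sequence is the 150 bases before the RefSeq start of the gene, 5′ to 3′ on the strand of the gene, from GRCh38.p14. GENCODE 29 places the outermost start of each of the 3 genes further upstream than RefSeq does. Capitals mark the ETS core CCGGAAG in UQCRQ, at chr5:132866492-132866641 on the plus strand, and the same core on the opposite strand in COX6B1, at chr19:35648173-35648322 on the plus strand. In ATP5PF, at chr21:25735055-25735204 on the minus strand, they mark in order the NRF1 core GCGCATGCG, the YY1 core AAGATGGC and the ETS core. The ATP5PF stretch also lies within the span of GABPA, a gene of GABP, at 25734570 to 25772460 on chromosome 21 (GENCODE 29).
UQCRQ: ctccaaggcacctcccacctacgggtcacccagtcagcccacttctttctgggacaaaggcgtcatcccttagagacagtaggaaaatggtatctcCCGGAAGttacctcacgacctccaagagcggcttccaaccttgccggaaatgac
COX6B1: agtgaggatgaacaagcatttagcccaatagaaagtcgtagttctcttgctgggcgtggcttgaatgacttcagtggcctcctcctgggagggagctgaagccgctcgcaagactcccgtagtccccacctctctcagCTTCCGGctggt
ATP5PF: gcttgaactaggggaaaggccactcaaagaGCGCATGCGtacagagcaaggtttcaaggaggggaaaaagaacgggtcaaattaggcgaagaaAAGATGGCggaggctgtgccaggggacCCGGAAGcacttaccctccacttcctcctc

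RefSeq promoters of 300 bases (250 before the start and 50 after it) were matched by symbol for 33 of the 43 members. The ETS core stood on either strand in 13 of these 33 (39.4%), against 10.7% of all 27195 promoters and 19.4% of the promoters of genes tested. The NRF1 core stood in 5 of them (15.2%), namely ATP5F1C, ATP5MC2, ATP5ME, ATP5PF and COX6A1, against 2.10% of all promoters and 3.60% of those of genes tested. The YY1 core stood in 4 of them (12.1%), against 3.03% and 5.38%. The 13 members with the ETS core were ATP5ME, ATP5MG, ATP5MK, ATP5PD, ATP5PF, COX4I1, COX5B, COX6A1, COX6B1, COX8A, UQCR11, UQCRH and UQCRQ. Among them, ATP5MG and ATP5MK had the lowest log2 fold changes of the ATP synthase (-0.06 and -0.05). COX7C and ATP5PO, at 0.24 and 0.22, had no ETS core in these 300 bases. Whether the letters go with the fold change was not tested. The letters of the 3 cores do not overlap in the sequences shown. Such a match describes the sequence and does not show that a factor binds there.

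Fluoxetine was compared with PBS to ask whether transcripts of the respiratory chain changed, complex by complex. No member passed the test in either direction. Of the 41 members tested, 34 had a log2 fold change above 0 and 7 one below it. The median log2 fold change was 0.09 for complex III, 0.16 for complex IV and 0.11 for the ATP synthase, beside -0.02 for all 12663 genes tested. CYCS, which encodes cytochrome c, was at 0.07. Fold changes are of log2(FPKM + 0.1), fluoxetine minus PBS, a scale that understates changes of low genes. In such bulk RNA, fewer cells of a type and less RNA per cell cannot be told apart.

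The test was limma over all genes averaging at least 0.1 FPKM, and 41 of the 43 members met that limit. Of these, 0 were called higher at an adjusted p under 0.05 (0.0237% of all genes tested were) and 0 were called lower (0.213% of all genes tested). The adjusted p of members ran from 0.431 for COX6B1 to 0.999 for ATP5PD. At an unadjusted p under 0.05, 8 members were higher, against 3.73% of all genes, and 0 were lower, against 4.79%. The 8 were COX6B1, COX7B, ATP5MJ, ATP5PO, UQCRQ, COX5B, ATP5MC1 and ATP5F1D. With 1 library left out, a group holds a single library, so the count of such fits is not given. The median log2 fold change of members moved with the library left out, from 0.12 with all 4. It was 0.05 without PBS replicate 2 and 0.06 without fluoxetine replicate 1. It was 0.16 without fluoxetine replicate 2 and 0.17 without PBS replicate 1. With all 4 libraries, the count of 8 became 1 after rescaling to TPM or quantile normalization, and 10 after median centring. The counts after removal of length trends are given below. limma voom on the reads solved from the FPKM also called 0 members. For a single gene, a two-sided exact permutation test of 2 against 2 libraries cannot go below p = 0.33.

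In 17 of the 41 members tested, both fluoxetine libraries were above both PBS libraries, as they were in 16.7% of all genes tested. In 0 members were both below, against 24.8% of all genes. The 17 were 3 genes of complex III, 7 of complex IV and 7 of the ATP synthase. The other 24 members overlapped between the groups.

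The libraries themselves were uneven. PBS replicate 2 was the lowest of the 4 libraries in 29 of 41 members, and fluoxetine replicate 1 was the highest in 30. The median difference of members from their own means was 0.02 in PBS replicate 1, -0.12 in PBS replicate 2, 0.11 in fluoxetine replicate 1 and 0.00 in fluoxetine replicate 2 (log2). Thus PBS replicate 1 and fluoxetine replicate 2 lay close together. In 26 of 41 members the gap between the PBS libraries was larger than the fold change. Without PBS replicate 2 the medians were 0.05 for complex III, 0.09 for complex IV and 0.05 for the ATP synthase, and 29 of 41 members were above 0. Without fluoxetine replicate 1 they were 0.05, 0.10 and 0.07, and 28 were above 0. Without PBS replicate 1 they were 0.13, 0.18 and 0.20, and the ATP synthase then stood above complex IV.

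**Figure D1:**
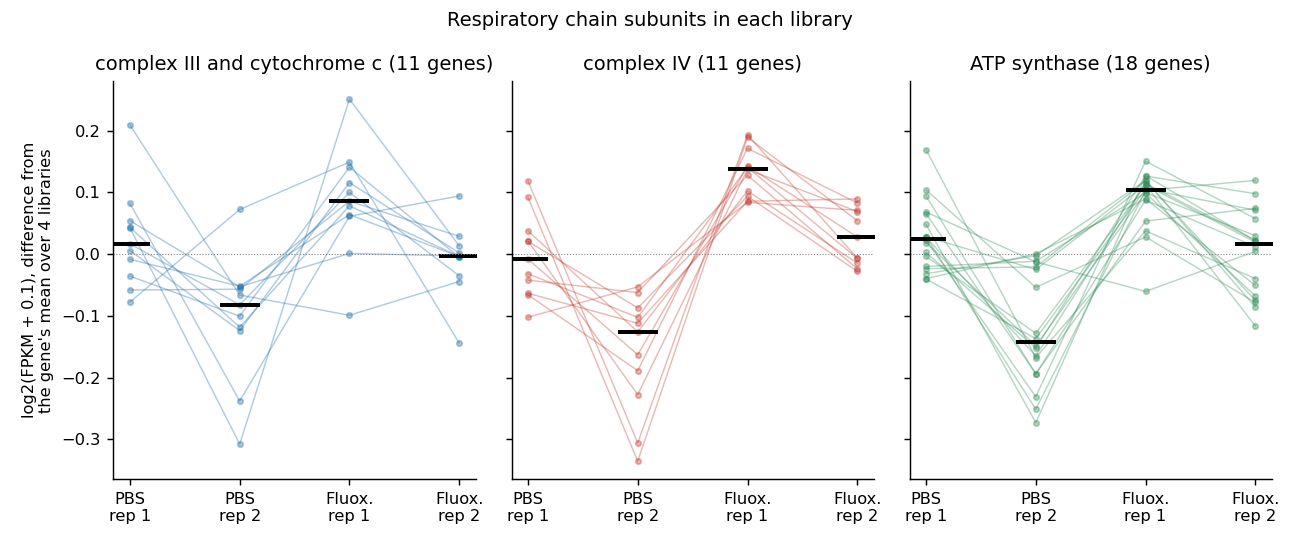
Difference of each subunit gene from its own mean over the 4 libraries, in log2(FPKM + 0.1) (vertical axis), in each library (horizontal axis), with one line per gene and black bars at the median of each panel. COX6B2 is left out for its few reads. In all 3 panels the median of PBS replicate 2 sits lowest and that of fluoxetine replicate 1 highest, and those of PBS replicate 1 and fluoxetine replicate 2 lie near 0.

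The highest fold changes of complex III were those of small subunits. UQCRQ, a small subunit beside the cytochrome b core, had 55.8 and 43.7 FPKM under PBS against 64.4 and 54.6 FPKM under fluoxetine. The second fluoxetine library was below the first PBS library, so the groups overlapped. Its log2 fold change of 0.26 (SE 0.11, adjusted p = 0.552 from limma) was the highest of any member and equals 1.20-fold. Without PBS replicate 2 it was 0.09, and without fluoxetine replicate 1 it was 0.15, where COX6B1 stood higher at 0.19 and 0.21. UQCRQ lies on chromosome 5 from 132866560 to 132868031 (GRCh38, GENCODE 29).

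UQCR11, another small subunit, had 88.3 and 70.7 FPKM under PBS against 87.0 and 89.0 FPKM under fluoxetine. Here one PBS library stood below the other 3. UQCRH, the hinge protein that contacts cytochrome c1, had 328 and 313 FPKM under PBS against 370 and 335 FPKM under fluoxetine, which was the highest mean level in complex III. Both fluoxetine libraries were higher, with a log2 fold change of 0.14 (SE 0.08). UQCR10, a further small subunit, also did not overlap, with 211 FPKM in both PBS libraries and 233 and 224 FPKM under fluoxetine.

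The electron-carrying and core subunits had log2 fold changes from -0.00 to 0.12. CYC1, cytochrome c1, had 252 and 245 FPKM under PBS against 265 and 253 FPKM under fluoxetine, and the higher PBS library was all but level with the lower fluoxetine library, though the groups did not overlap. UQCRFS1, the Rieske iron-sulfur protein, had 63.6 and 56.8 FPKM under PBS against 65.2 and 61.6 FPKM under fluoxetine. The core proteins face the matrix. UQCRC1 had 228 and 209 FPKM under PBS against 246 and 228 FPKM under fluoxetine, and UQCRC2 had 147 and 136 FPKM under PBS against 142 and 141 FPKM under fluoxetine. In UQCRFS1, UQCRC1 and UQCRC2 the groups overlapped, and the log2 fold change of UQCRC2 was -0.00 (SE 0.07).

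UQCRB, a subunit that helps form the ubiquinone site, had 21.5 and 23.9 FPKM under PBS against 25.2 and 20.6 FPKM under fluoxetine, so the fluoxetine libraries held both the highest and the lowest value. UQCRHL had 18.2 and 15.03 FPKM under PBS against 14.7 and 15.3 FPKM under fluoxetine. Its 275 to 322 reads per library may be reads of UQCRH, of which it is a near-identical copy, and its value is uncertain. CYCS, the soluble carrier between complexes III and IV, had 64.2 and 59.95 FPKM under PBS against 68.0 and 61.9 FPKM under fluoxetine, and the groups overlapped.

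Complex IV had the highest median with all 4 libraries, with 11 of its 12 tested genes above 0. In 7 of the 12 both fluoxetine libraries were above both PBS libraries, against 16.7% of all genes tested. Among other genes averaging at least 20 FPKM with transcripts of up to 1800 bases, such shares were 38.7% to 62.2%, as given below by length. COX6B1, a subunit that joins the monomers of the complex on the side of the intermembrane space, had 270.7 and 248.6 FPKM under PBS against 319 and 300 FPKM under fluoxetine. Every fluoxetine value was above every PBS value. Its log2 fold change of 0.25 (SE 0.08, adjusted p = 0.431 from limma) had the lowest adjusted p of any member. COX6B1 lies on chromosome 19 from 35648223 to 35658861.

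COX7C, a small membrane subunit, had 279 and 207 FPKM under PBS against 298 and 272 FPKM under fluoxetine. PBS replicate 2 stood far below the other 3 libraries, and the second fluoxetine library was below the first PBS library. Its log2 fold change of 0.24 had an SE of 0.12 and was 0.03 without PBS replicate 2. COX5B, which binds zinc, had 168 and 142 FPKM under PBS against 182 and 174 FPKM under fluoxetine, without overlap and with a log2 fold change of 0.21 (SE 0.09). COX4I1, the regulatory subunit that binds ATP, had 357 and 320 FPKM under PBS against 396 and 366 FPKM under fluoxetine, again without overlap. COX5A, its neighbour on the matrix side, had 206 and 191 FPKM under PBS against 217 and 199 FPKM under fluoxetine, and overlapped. COX8A, the most abundant transcript of the complex by FPKM, had 606 and 541 FPKM under PBS against 634 and 585 FPKM under fluoxetine, and overlapped too.

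Several subunits of complex IV have isoforms that differ between tissues, and the widely expressed form prevailed in each family measured. COX6B1 was 1768 times as abundant per length as COX6B2, the testis form, in mean FPKM. COX6B2 had 17 and 11 reads under PBS against 17 and 1 reads under fluoxetine, and its log2 fold change of -0.60 had an SE of 0.51. The muscle and heart form COX7A1 had 0 reads in all 4 libraries, where a count of 0 allows up to 3 reads, and was not tested. Its widely expressed counterpart COX7A2 had 66.3 and 49.4 FPKM under PBS against 69.9 and 60.8 FPKM under fluoxetine, and overlapped.

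COX7A2L, which takes part in joining complexes III and IV into supercomplexes, had 27.1 and 28.0 FPKM under PBS against 30.8 and 30.5 FPKM under fluoxetine. COX7B, a small subunit needed to assemble the complex, had 68.8 and 66.6 FPKM under PBS against 76.3 and 76.5 FPKM under fluoxetine. In these 2 genes the replicates lay closer together than the groups, with log2 fold changes of 0.16 (SE 0.07, adjusted p = 0.579 from limma) and 0.18 (SE 0.07, adjusted p = 0.538). COX6A1 had 544 and 536 FPKM under PBS against 612 and 551 FPKM under fluoxetine, and COX6C had 155 and 148 FPKM under PBS against 175 and 158 FPKM under fluoxetine. Neither overlapped. COX4I2, COX6A2, COX7B2 and COX8C were not analysed here.

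The ATP synthase had 14 tested genes above 0 and 4 below. The catalytic head is formed by alpha, beta and gamma subunits. ATP5F1B, the catalytic beta subunit and the highest member by mean FPKM, had 838 and 746 FPKM under PBS against 886 and 844 FPKM under fluoxetine, without overlap. ATP5F1A, the alpha subunit, had 146 and 128 FPKM under PBS against 155 and 145 FPKM under fluoxetine, and the lower fluoxetine library was just under the higher PBS library. ATP5F1C, the gamma subunit that turns inside the head, had 223 and 230 FPKM under PBS against 244 and 222 FPKM under fluoxetine, and overlapped. Their log2 fold changes were 0.13 (SE 0.09), 0.14 (SE 0.08) and 0.04 (SE 0.08).

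The 3 genes with the highest fold changes belong to the rotor and the stalks. ATP5F1D, the delta subunit of the central stalk, had 381 and 305 FPKM under PBS against 402 and 394 FPKM under fluoxetine, a log2 fold change of 0.22 (SE 0.10, adjusted p = 0.570 from limma). It lies on chromosome 19 from 1241746 to 1244826. ATP5PO, the protein of the peripheral stalk that confers oligomycin sensitivity, had 169 and 139 FPKM under PBS against 178 and 180 FPKM under fluoxetine, a log2 fold change of 0.22 (SE 0.09, adjusted p = 0.541). In both genes PBS replicate 2 stood well below the other 3 libraries, and the groups did not overlap. Without that library the log2 fold changes were 0.06 for ATP5F1D and 0.08 for ATP5PO.

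The c subunit of the rotor ring is encoded by 3 genes whose mature proteins are identical. ATP5MC1 had 285 and 239 FPKM under PBS against 311 and 292 FPKM under fluoxetine, a log2 fold change of 0.21 (SE 0.09) without overlap, which was 0.08 without PBS replicate 2. ATP5MC2 had 59.5 and 59.8 FPKM under PBS against 64.6 and 57.5 FPKM under fluoxetine, and ATP5MC3 had 120 and 101 FPKM under PBS against 119 and 121 FPKM under fluoxetine. Both overlapped, with log2 fold changes of 0.03 (SE 0.08) and 0.13 (SE 0.09). The difference between the 3 c subunit genes was not tested.

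The lowest fold changes were in supernumerary membrane subunits. ATP5MG, subunit g at the dimer interface, had 268 and 254 FPKM under PBS against 246 and 257 FPKM under fluoxetine. ATP5MK, a small dimer-associated protein, had 86.4 and 77.5 FPKM under PBS against 82.0 and 76.2 FPKM under fluoxetine. ATP5MF, subunit f, had 205 and 197 FPKM under PBS against 217 and 185 FPKM under fluoxetine. All 3 overlapped, with log2 fold changes of -0.06 (SE 0.08), -0.05 (SE 0.08) and -0.00 (SE 0.09).

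ATP5IF1, which inhibits ATP hydrolysis by the complex, had 185 and 189 FPKM under PBS against 206 and 179 FPKM under fluoxetine, so the fluoxetine values lay on either side of both PBS values. The other tested genes of the ATP synthase had log2 fold changes from -0.00 for ATP5PD to 0.18 for ATP5MJ. Of these, ATP5MJ, ATP5PB and ATP5F1E did not overlap, and ATP5ME, ATP5PF and ATP5PD did. ATP5MGL, a copy of ATP5MG, had 1 and 0 reads under PBS against 1 and 0 reads under fluoxetine, and was not tested.

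**Figure D2:**
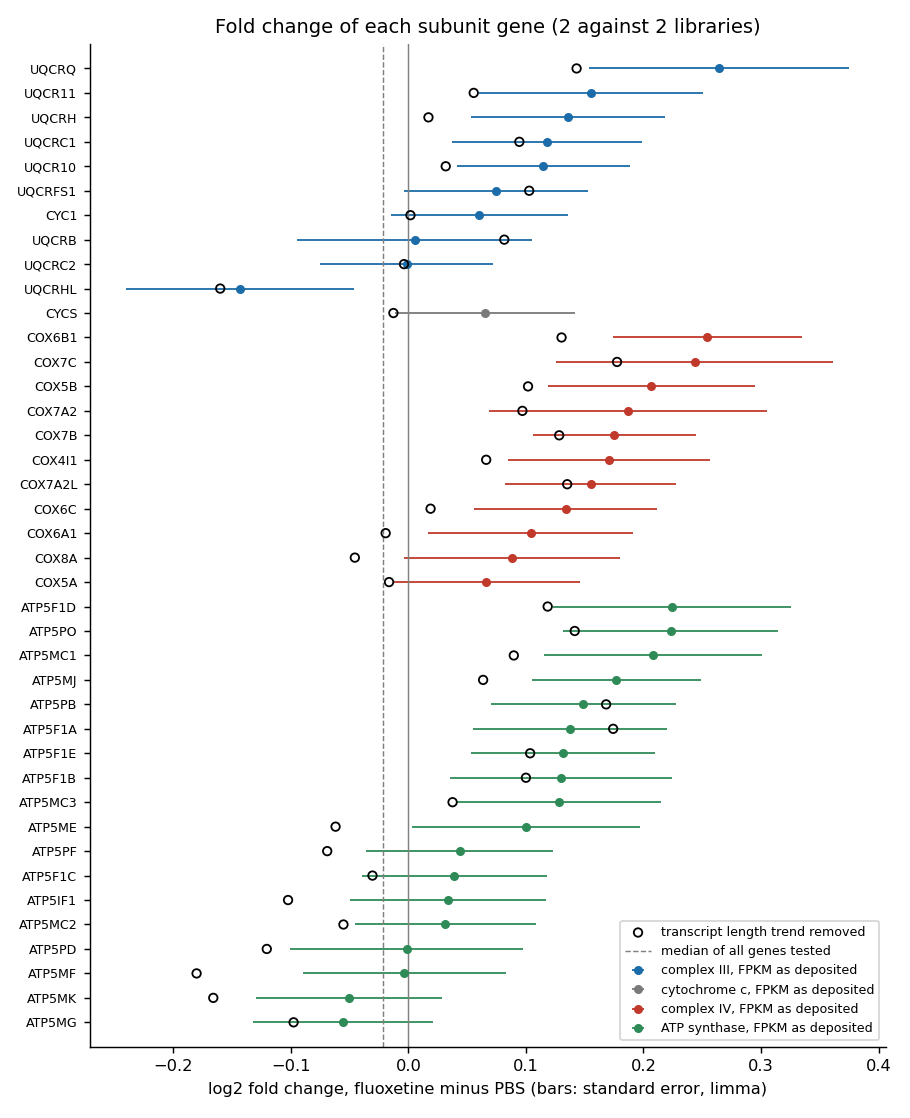
Log2 fold change, fluoxetine minus PBS (horizontal axis), of 40 subunit genes, with filled points and limma standard errors for the FPKM as deposited and open circles after the trend with main transcript length was removed. COX6B2 is left out. The filled points run from -0.14 for UQCRHL to 0.26 for UQCRQ, and most open circles lie to their left.

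Without UQCRHL and COX6B2, the 39 other tested members each had 1849 to 54251 reads per library, where the counting error of one value is 0.034 to 0.0062 on the log2 scale. Their fold changes ran from -0.06 to 0.26, with standard errors of 0.07 to 0.12. Summed over complex IV, FPKM were 2747 and 2478 under PBS against 3010 and 2771 with fluoxetine. For the ATP synthase the sums were 3717 and 3310 under PBS against 3874 and 3669 with fluoxetine, and for complex III they were 1413 and 1324 under PBS against 1512 and 1421 with fluoxetine. Only the sums of complex III and complex IV kept both fluoxetine libraries above both PBS libraries. All members together made up 2.18% and 2.02% of the summed FPKM of all genes with PBS, and 2.23% and 2.17% with fluoxetine.

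Levels of different subunits can be compared only per length, and FPKM depend on the length by which they were divided. That length was recovered with the reads, and it was more than 2 times the main transcript in GENCODE 29 for 5 members. CYCS was divided by 5432 bases, although its main transcript has 974. UQCRB and UQCRFS1 had similar reads in PBS replicate 1, 6165 and 6451, yet 21.5 and 63.6 FPKM. The order of subunits by FPKM is therefore partly an order of gene model lengths, whereas the fold change of one gene does not depend on the divisor.

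Transcript length was examined as a confounder, since these transcripts are short. The median main transcript of the members had 878 bases, against 2972 for all genes tested. In these libraries the difference of a gene from its mean moved with length. Across genes averaging at least 10 FPKM, it correlated with log2 transcript length at -0.645 for the first fluoxetine library and 0.483 for the second PBS library, and at 0.123 and 0.0921 in the other PBS and fluoxetine libraries. Short transcripts were thus high in the first fluoxetine library and low in the second PBS library, the same 2 libraries that stood apart for the members. Genes are not independent replicates, and these correlations are descriptions.

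Members were set beside other genes of the same band of length that averaged at least 20 FPKM. Up to 600 bases, 7 members had a median log2 fold change of 0.10 and 45 other genes one of 0.18. From 600 to 900 bases the medians were 0.15 for 14 members and 0.13 for 191 other genes. From 900 to 1800 bases they were 0.07 for 9 members and 0.08 for 868 other genes. In these 3 bands 15 of 30 members were above the median of other genes of their band. Both fluoxetine libraries were higher in 2 of 7, 7 of 14 and 4 of 9 members of the 3 bands, against 62.2%, 42.9% and 38.7% of the other genes. Above 1800 bases the medians were 0.13 for 9 members and -0.00 for 2212 other genes, and 8 of the 9 were above the other genes' median. These 9 were ATP5F1A, ATP5F1B, ATP5F1E, ATP5PB, COX7A2L, UQCRB, UQCRC1, UQCRC2 and UQCRFS1, and in 4 of them both fluoxetine libraries were higher, against 21.2% of the other genes in the band. In this band too, members had a median difference from their own means of -0.12 in PBS replicate 2 and 0.11 in fluoxetine replicate 1, against 0.01 and 0.00 for the other genes. The band above 1800 bases has no upper limit, so its members and other genes were not matched in length. With the trend of main transcript length removed, as described below, the median log2 fold changes in it were 0.10 for members and 0.03 for other genes.

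When the trend with gene length (summed exons in GENCODE 29) was removed in each library, the median log2 fold changes were 0.06 for complex III, 0.14 for complex IV and 0.06 for the ATP synthase. Of the 41 members, 30 were then above 0, COX6B1 at 0.17 and UQCRQ at 0.20, and limma called 0, with a lowest adjusted p of 0.548. The length of the main transcript, a measure chosen after the data were seen, lowered the medians further, to 0.04, 0.08 and 0.00. With it, 25 of the 41 members were above 0. Both fluoxetine libraries were above both PBS libraries in 11 members (19.8% of all genes) and below both in 3, COX8A, ATP5MF and ATP5MK (20.1% of all genes). Of the 11, 5 were of complex IV, namely COX4I1, COX5B, COX6B1, COX7A2L and COX7B, and each of these had been without overlap before the removal as well. The other 6 were of the ATP synthase, and of them ATP5F1A had overlapped before. COX6B1 then had a log2 fold change of 0.13 and UQCRQ one of 0.14. The limma test called 0 members after this removal. Its lowest adjusted p, 0.520, was that of ATP5MK, which was lower with fluoxetine (log2 fold change -0.17). At an unadjusted p under 0.05 (limma), 4 members were then higher and 2 lower, against 8 and 0 before any removal. After removal of the gene length trend these counts were 7 and 0. With the length behind the FPKM, also chosen after the data were seen, the medians were 0.04, 0.09 and 0.04. The counts at an unadjusted p under 0.05 (limma) were then 2 higher and 3 lower. Across the 39 members with enough reads, log2 fold change and log2 transcript length had an r of -0.113 before the removal by main transcript length and 0.490 after it.

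Assembly factors build the complexes but are not part of them. Of 25 tested factors of complex IV, 18 were above 0, with a median log2 fold change of 0.05. Both fluoxetine libraries were higher in 10 of them and lower in 2, against 16.7% and 24.8% of all genes tested, and these shares were not compared at matched length. None passed the test in either direction. COA3, which acts with COX14 in making the COX1 subunit, had 36.9 and 30.2 FPKM under PBS against 41.8 and 40.9 FPKM under fluoxetine. COX14 had 48.2 and 41.5 FPKM under PBS against 52.8 and 54.7 FPKM under fluoxetine. COA6, a factor for the copper site, had 18.9 and 15.4 FPKM under PBS against 20.7 and 21.2 FPKM under fluoxetine. In these 3 genes both fluoxetine libraries were higher, with log2 fold changes of 0.31, 0.26 and 0.30 for COA3, COX14 and COA6 (adjusted p = 0.397, 0.421 and 0.462 from limma). PBS replicate 2 was the lowest library in all 3, and without it the fold changes were 0.16, 0.16 and 0.15. The 6 factors of complex III had a median of 0.07 and the 3 tested factors of the ATP synthase one of 0.12, with 0 called in either list.

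NDUFA4, a complex IV subunit, and its paralog NDUFA4L2 are not taken by the rule on names. NDUFA4 had 118 and 86.0 FPKM under PBS against 119 and 116 FPKM under fluoxetine. Its log2 fold change was 0.23 (SE 0.12, adjusted p = 0.603 from limma). As in most members, PBS replicate 2 was the lowest library, and without it the log2 fold change of NDUFA4 was -0.00. NDUFA4L2, which is known to be induced by hypoxia through HIF, had 128 and 125 FPKM under PBS against 93.6 and 88.0 FPKM under fluoxetine, from 5004 and 5157 reads and from 3871 and 3640 reads. The PBS libraries lay close together, as did the fluoxetine libraries, with no overlap between the groups. NDUFA4L2 fell by 0.48 on the log2 scale (SE 0.07, adjusted p = 0.0178 from limma), and after the removal of the transcript length trend by 0.54 (adjusted p = 0.00585). It lies on chromosome 12 from 57234903 to 57240715. Its adjusted p was under 0.05 in 14 of 20 alternatives, and with any 1 library left out it lay between 0.103 and 0.405, while the log2 fold change stayed between -0.52 and -0.43.

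The RNA of factors known to act on such genes was measured as well, but not their activity. Of 11 regulators tested, 5 were above 0 and 6 below, with a median log2 fold change of -0.02 and 0 called in either direction. NRF1 had 6.70 and 6.95 FPKM under PBS against 7.34 and 8.58 FPKM under fluoxetine, without overlap (log2 fold change 0.22, SE 0.10, adjusted p = 0.582 from limma). GABPA, the DNA-binding part of GABP, had 9.54 and 10.2 FPKM under PBS against 8.84 and 9.80 FPKM under fluoxetine, and YY1 had 30.4 and 29.6 FPKM under PBS against 28.4 and 30.6 FPKM under fluoxetine. Both overlapped. PPARGC1A, the coactivator PGC-1alpha, was low, at 0.518 to 0.617 FPKM. PPARGC1B and PPRC1, listed with it among the regulators, were at 6.30 to 7.85 FPKM and 28.6 to 31.1 FPKM.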

How the data were processed

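RNA of LASCPC-01 cells was sequenced in paired-end reads of 150 bases and the authors deposited 1 FPKM value per gene and library, the fragments on a gene divided by its length and by the depth of the library. The submitters' processing notes name fastp, HISAT2, HTSeq and GRCh38. The annotation and the strand setting are not given in the sources used here, and the labels and the methods name different library kits. Samples were grouped by their treatment label.

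The FPKM were whole multiples of the worth of 1 read, so reads were solved for 16067 of 16080 genes above 0 (99.92%, within 0.004 of a whole number). The depths by which the authors divided were estimated at 32873603 and 34756748 reads for PBS and 34806710 and 34831389 reads for fluoxetine. At these depths 1 read on 1 kilobase was worth 0.0304, 0.0288, 0.0287 and 0.0287 FPKM. Depths were found from 40 genes with known exon lengths in GENCODE 29, and the absolute reads and lengths rest on these. Of the members, only 1 had a recovered length within 1 base of its summed exons in GENCODE 29, and 39 were shorter. Counting errors cover counting only.

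Groups were compared by limma (version 3.58.1, R 4.3.3), using lmFit and a trended eBayes, with log2(FPKM + 0.1) as the response. It ran over the 12663 genes averaging at least 0.1 FPKM, and p-values were adjusted by Benjamini-Hochberg over all of them. The deposited values are not counts. The count test named in the study's methods was not run on the solved reads, to which limma voom was applied instead. The medians of each complex are descriptions without a test. Length and GC trends were removed by lowess (span 0.3) of each gene's difference from its mean, and the main transcript was the median length of the best APPRIS transcripts. The solving of reads and limma were tried on simulated data. There the depths were given rather than found, and reads were scored only up to a common factor. The step that sets absolute depths and gene lengths was not simulated. Python 3.11.15 (pandas 2.3.3, numpy 2.4.6, matplotlib 3.10.9) made the tables and figures.

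The members, the lists and the motifs were chosen with earlier results of these data known. Members named with all values were the 3 highest and 3 lowest of each complex by fold change, the most abundant, the core subunits, the isoform families and those not tested. UQCR10, COX6C, GABPA, YY1, PPARGC1A, PPARGC1B, PPRC1, SDHA, SLC25A3 and SLC25A5 were named after their values were seen. For other lists, at most 3 genes with the largest absolute fold changes and any called were named. The alternatives tried were a pseudocount of 1 or 0.01, a minimum mean of 1 FPKM or none, rescaling to TPM, quantile normalization, median centring, other moderation, the replicate block, removal of length or GC trends, and each library left out. The length trends were those of summed exons, of the main transcript and of the length behind the FPKM. The last 2 lengths, voom on reads of genes with at least 10 reads, and the ratio of group means were chosen after seeing the data. The result for 1 marker gene is not reported here.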

Additional observations from a re-analysis of the deposited data

How the results depend on the processing

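Members called numbered 0 in each direction under all 20 alternatives with a test, and the lowest adjusted p of a member in any of them was 0.157 (limma). Medians ran over 21 alternatives from 0.04 to 0.14 for complex III and from 0.08 to 0.19 for complex IV. For the ATP synthase the median was 0.0036 after removal of the main transcript length trend and 0.011 after quantile normalization, and between 0.046 and 0.20 with 1 library left out. Of the members, 18 were above 0 in every alternative (3 of complex III, 7 of complex IV, 8 of the ATP synthase), and 21 changed sign in at least 1, in 70 of 860 values. The number of all genes called, 30, was 16 after quantile normalization, 51 with voom, and 0 without a filter (1175 at an unadjusted p under 0.05) and without the variance trend (933). It was 2 to 12 with 1 library left out, where the lone library was assumed to vary like the other group. With the replicate block it was 64, and the block called 0 members. The replicate numbers come from the titles, and deviations of same-numbered libraries correlated at 0.0351 (0.101 at a mean FPKM of 10 or more). Replicate 2 was below replicate 1 in 34 of 41 members under PBS and in 35 under fluoxetine. Over all 12663 genes tested it was below in 5912 and 6257, and these counts were not compared at matched length. The labels tie the numbers to no shared culture or batch, and whether they pair the samples was not settled. The adjusted p of NDUFA4L2 was 0.61 without a filter and 0.385 without the variance trend, with the log2 fold change at -0.48 in both. The causes were not tested.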

Other observations

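Complex II and the carriers that feed the ATP synthase were near the level of the other lists. Complex II (succinate dehydrogenase), which passes electrons to ubiquinone without pumping protons, had 4 of 4 genes above 0 with a median log2 fold change of 0.08, and 0 called. SDHD, a membrane anchor, had 48.4 and 41.3 FPKM under PBS against 54.7 and 50.3 FPKM under fluoxetine, without overlap (log2 fold change 0.23, SE 0.09, adjusted p = 0.532 from limma). SDHA, which holds the flavin, had 90.0 and 81.5 FPKM under PBS against 88.2 and 88.0 FPKM under fluoxetine, and overlapped.

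Of 7 carriers and outer membrane channels, 5 were above 0 and 2 below, with a median of 0.04 and 0 called. SLC25A5, an ADP/ATP carrier and the most abundant of the 7 by FPKM, had 399 and 367 FPKM under PBS against 394 and 395 FPKM under fluoxetine, and overlapped. SLC25A3, the phosphate carrier, had 94.5 and 89.1 FPKM under PBS against 97.5 and 94.8 FPKM under fluoxetine, a log2 fold change of 0.07 (SE 0.07).

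Of the 5 neuroendocrine markers tested, 4 were below 0 and 1 above, with both fluoxetine libraries lower in 3 (24.8% of all genes tested) and 0 called (limma). Their part in the values of the respiratory genes was not tested.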
